A study of Mus musculus with 6 samples.

Results

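Fatty acid oxidation and ketone synthesis were followed as 32 listed genes in the large intestine of mice, of which 31 had a probe set annotated to that gene alone, out of 18193 genes measured. The genes were listed by name for their roles, not by a measured difference, and where several probe sets named a gene the one with the highest average across the 6 arrays was read. Acsl1 had no such probe set in the tables used here and was dropped. All animals were untreated females of the inbred strain C57BL/6J. Proximal and distal colon were compared with 3 libraries each, and by the design text both regions came from 3 animals. Animal age was not given in the sources used here. Colon tissue was homogenised as such, and its RNA amplified before labelling, so fewer cells of a type and less RNA per cell cannot be told apart.

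Fatty acids are broken down to acetyl-CoA in mitochondria, after long chains have been carried in on carnitine, and very long chains are first shortened in peroxisomes. Each turn of the spiral uses a dehydrogenase, a hydratase, a second dehydrogenase and a thiolase, and the first of these hands its electrons to the respiratory chain through the electron transfer flavoprotein. Colonocytes are known for burning the short chain fatty acid butyrate, made by gut bacteria, and for turning part of it into ketone bodies. Many of these genes are textbook targets of the nuclear receptors of the PPAR family, which bind DNA together with RXR.

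A pair of libraries went against their labels, so libraries are named here by label and number. Hoxb13, which patterns the tail end of the body and hindgut, measured 13.39 in proximal 1 but 6.53 and 6.48 in proximal 2 and 3, and 13.78 and 13.29 in distal 1 and 2 but 6.65 in distal 3 (log2 values). The regional list it leads with Hoxb6 (7 of 8 measured) averaged 8.25, 6.91 and 6.85 in proximal 1 to 3 and 8.29, 8.15 and 7.08 in distal 1 to 3. That mean pools genes of opposite direction. Hoxd13 and Hoxa13 ran with Hoxb13, Hoxb6 and Hoxc8 ran against it, and Hoxd12 and Gata4 differed little. Hoxb6 measured 11.45, 11.60 and 11.58 in proximal 2, proximal 3 and distal 3, and 6.72 and 7.72 in distal 1 and 2. Its proximal 1 value lay between those of distal 1 and distal 2. Nothing was relabelled. Results are given as labelled and with proximal 1 and distal 3 left out, and that smaller comparison was chosen for the profiles of these libraries, so its p-values overstate the evidence. Epithelial markers were all measured (12 of 12), with a mean level of 13.81, 14.06 and 14.08 in proximal 1 to 3 and 13.81, 13.84 and 14.06 in distal 1 to 3, led by Krt19 and Lgals4. Smooth muscle markers (10 of 10, led by Mylk and Tagln) averaged 13.09, 12.88 and 12.68, and 13.09, 13.21 and 13.12, in the same order. Acinar cell markers of the pancreas (10 of 12, led by Cela1 and Clps) averaged 12.63 in proximal 1 and 12.58 in distal 1, and 6.98 to 7.38 in the others. The means of leukocyte (9 of 10 measured, led by Csf1r and Coro1a), endothelial (10 of 10, Ptprb and Tek), enteric neuron (9 of 10, Snap25 and Uchl1), skeletal muscle (10 of 10, Acta1 and Ckm) and liver markers (9 of 10, Ttr and Tat) ran from 8.83 to 9.34, 9.04 to 9.36, 8.77 to 9.34, 6.71 to 6.90 and 6.74 to 6.95. Such means can hide unlike markers. With proximal 1 and distal 3 left out, 3 leukocyte markers were called lower in distal and 1 higher (limma, adjusted p below 0.05). For skeletal muscle 2 were lower and 3 higher, for endothelium and for liver 1 and 1, and for enteric neurons 0 and 2. For epithelium 2 of 12 were lower and 0 higher, and for smooth muscle and for acinar cells 0 and 2. Over all genes 11.5% were called lower and 7.71% higher. The part of all these cell types in the results was not tested.

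As labelled, no gene of the 31 passed for a difference between the regions, while 28 had a lower mean in distal libraries, as did 53.7% of all genes. The median difference, distal minus proximal, was -0.21 on the log2 scale, against -0.020 over all genes tested. By limma the adjusted p ran from 0.824 to 0.993, and 0 of the 31 genes had an unadjusted p below 0.05. Over all genes tested, 0% passed the adjusted threshold and 3.05% had an unadjusted p below 0.05. The 3 distal and 3 proximal values overlapped for every one of the 31 genes, where 7.34% of all genes did not overlap, 2.73% being higher in distal and 4.61% lower.

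With proximal 1 and distal 3 left out, 15 of the 31 genes were lower in distal 1 and 2 than in proximal 2 and 3, and 2, Acsm3 and Ppargc1a, were higher. The other 14 did not pass. Over all genes tested 19.2% were called in this comparison, 11.5% lower and 7.71% higher (limma, adjusted p threshold 0.05). The median difference was -0.53 for the 31 genes and -0.045 for all genes. Of the 31 differences 28 were below 0, against 56.1% of all genes. After quantile normalization 15 members were called lower and 3 higher, against 9.44% of all genes called lower, and after centring each array on its median 13 and 3, against 8.55%. Of all called genes, 40.1% were higher in distal with the values used here, 50.2% with quantile normalization and 54.8% with centring. Each further library taken away left 1 library in a group and cost calls among the members, as it did over all genes.

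The libraries left out can be placed gene by gene. Proximal 1 lay nearer the mean of distal 1 and 2 than that of proximal 2 and 3 for 28 of the 31 genes, the exceptions being Eci2, Acat1 and Cd36. Distal 3 lay nearer the mean of proximal 2 and 3 for 29, the exceptions being Oxct1 and Acsl5. Over all genes these shares were 57.1% and 70.7%.

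**Figure D1:**
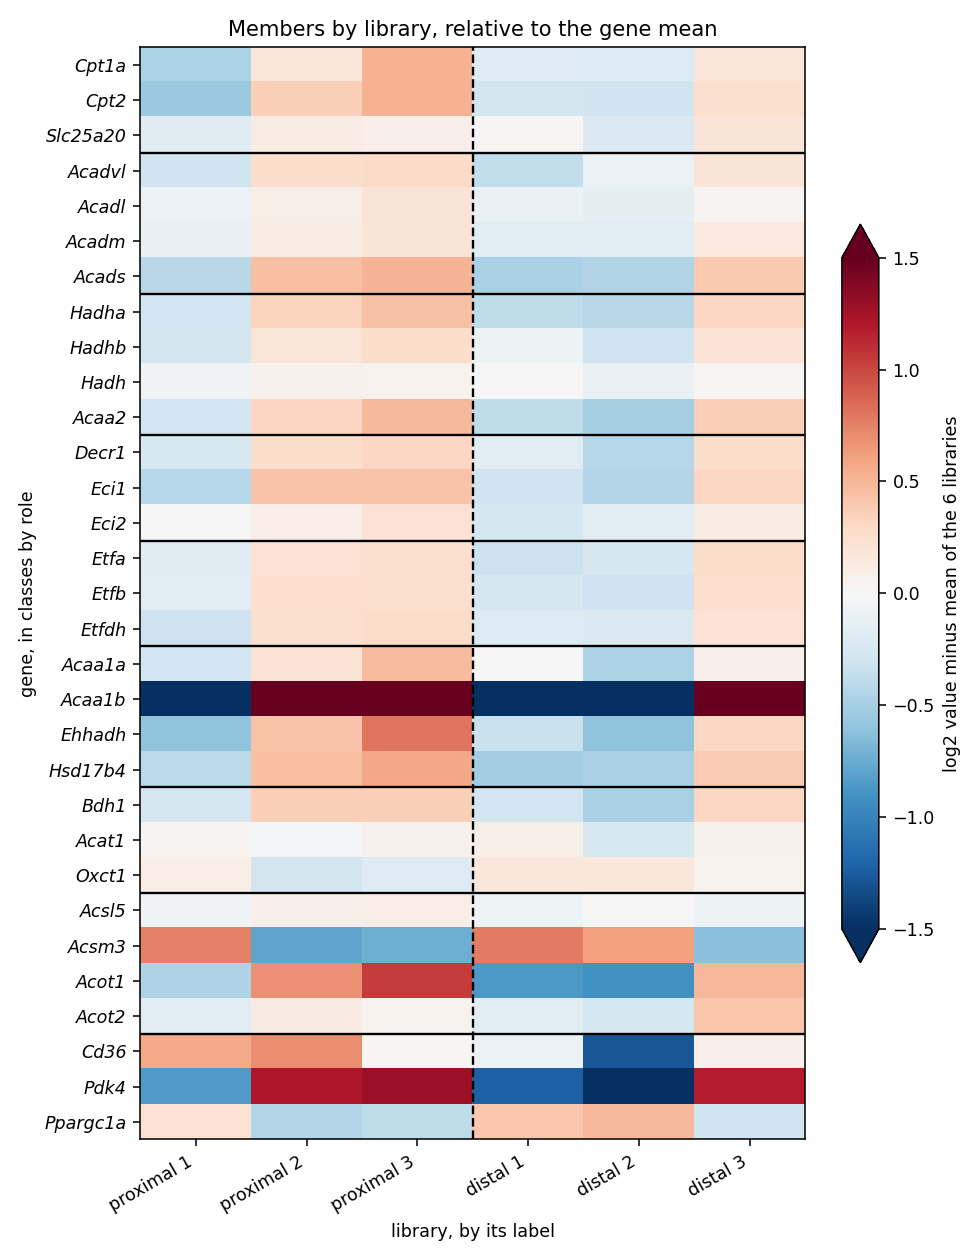
Each row is a gene and each column a library, coloured by its log2 value minus the gene's mean over the 6 libraries, with the colour scale ending at 1.5 on either side. Most rows are red in proximal 2, proximal 3 and distal 3 and blue in the other libraries, while Acsm3, Ppargc1a and Oxct1 run the other way and Hadh and Acsl5, with ranges of 0.16 and 0.18, stay pale.

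Entry of long chains into mitochondria was led by Cpt2, which frees the acyl chain from carnitine inside the inner membrane. It measured 11.69, 12.60 and 12.77 in proximal 1, 2 and 3 and 11.97, 11.95 and 12.48 in distal 1, 2 and 3. Its values were lowest in proximal 1 and highest in proximal 2 and 3, and the groups as labelled overlapped. As labelled the difference was -0.22 (SE 0.31, limma adjusted p = 0.858), and in the 4 libraries -0.72 (SE 0.11, limma adjusted p = 0.0146), lower in distal. Cpt1a, which loads the chain onto carnitine and sets the pace of entry, measured 11.30, 11.95 and 12.30 in proximal and 11.59, 11.58 and 11.96 in distal libraries 1 to 3. Its difference in the 4 libraries was -0.54 (SE 0.15) and did not pass (limma adjusted p = 0.0603). It passed after dim genes, with a mean below the median, were filtered out (limma adjusted p = 0.0328). A trended robust variance prior also let it pass (limma adjusted p = 0.0206), but quantile normalization, median centring and averaged probe sets did not. Slc25a20, the carrier that swaps acylcarnitine for carnitine across the inner membrane, measured 13.66, 13.95 and 13.92, and 13.86, 13.63 and 14.03, with a mean of 13.84 in both labelled groups. Its second probe set differed by -0.58 in the 4 libraries, against -0.19 for the brighter one used here.

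The acyl-CoA dehydrogenases open the spiral, each for its own chain length. Acads, for short chains such as butyrate, measured 11.39, 12.25 and 12.31 in proximal 1, 2 and 3 and 11.32, 11.35 and 12.20 in distal 1, 2 and 3. A set of 3 libraries lay between 12.20 and 12.31 and the others between 11.32 and 11.39, the higher set being proximal 2, proximal 3 and distal 3. Acads was the member of this class called in the 4 libraries, lower in distal, with a difference of -0.94 (SE 0.10, 1.93-fold, limma adjusted p = 0.00527). Acadvl, for very long chains, measured 12.41, 12.97 and 12.99, and 12.33, 12.62 and 12.90, a difference in the 4 libraries of -0.51 (SE 0.14, limma adjusted p = 0.057). That did not pass, nor did it after quantile normalization or median centring. It passed with dim genes filtered out, averaged probe sets or the trended prior (limma adjusted p = 0.0293, 0.046 and 0.0134). Acadm, for medium chains, measured 12.14, 12.37 and 12.45, and 12.08, 12.09 and 12.40. Acadl, for long chains, measured 12.71, 12.89 and 12.99, and 12.70, 12.67 and 12.84. Neither passed in the 4 libraries, with differences of -0.33 (SE 0.11) and -0.26 (SE 0.11) and limma adjusted p = 0.0901 and 0.161.

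The middle and last steps on long chains are done by the mitochondrial trifunctional protein, whose subunits Hadha and Hadhb are encoded head to head. In RefSeq's mouse assembly GRCm38.p6 their start sites face away from each other on chr5:30154981-30155252, with 272 bases between them. The stretch is shown because it lies upstream of both, in the direction of Hadhb, with capitals for GGGCGG or its reverse complement, the GC box, and for CCAAT or its reverse complement. It holds 2 GC boxes and 0 CCAAT boxes.
Hadha and Hadhb: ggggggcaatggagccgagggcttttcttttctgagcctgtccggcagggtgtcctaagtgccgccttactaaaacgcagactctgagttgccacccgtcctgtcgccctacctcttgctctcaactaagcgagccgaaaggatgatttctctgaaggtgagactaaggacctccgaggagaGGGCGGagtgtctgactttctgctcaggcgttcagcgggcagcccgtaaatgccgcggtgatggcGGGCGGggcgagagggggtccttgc

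Hadha measured 11.60, 12.22 and 12.33 in proximal 1, 2 and 3 and 11.50, 11.47 and 12.19 in distal 1, 2 and 3, and Hadhb 12.81, 13.26 and 13.34, and 13.01, 12.78 and 13.29. Both were highest in proximal 2, proximal 3 and distal 3. In the 4 libraries Hadha was lower in distal, with a difference of -0.79 (SE 0.11, limma adjusted p = 0.0096), and Hadhb differed by -0.41 (SE 0.13, limma adjusted p = 0.0833), which did not pass. Hadhb is the only member whose probe sets disagreed in direction, as its dimmest probe set differed by 0.56. Acaa2, the mitochondrial thiolase, measured 12.40, 13.01 and 13.17, and 12.31, 12.19 and 13.05. It was lower, with a difference of -0.84 (SE 0.12, limma adjusted p = 0.0106), and its other probe sets ran to -1.51. Hadh, the hydroxyacyl-CoA dehydrogenase for shorter chains, stayed within 14.19 and 14.35 in all 6 libraries, and its difference in the 4 libraries was -0.10 (SE 0.11, limma adjusted p = 0.568). Its dimmer probe sets differed by -0.23 and -0.25.

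Unsaturated chains need extra enzymes. Eci1, a mitochondrial enoyl-CoA isomerase, measured 11.21, 12.06 and 12.06 in proximal 1, 2 and 3 and 11.34, 11.20 and 11.94 in distal 1, 2 and 3. Decr1, the dienoyl-CoA reductase, measured 12.40, 12.91 and 12.96, and 12.47, 12.22 and 12.91. Both were lower in distal in the 4 libraries, with differences of -0.79 (SE 0.11, limma adjusted p = 0.0103) and -0.59 (SE 0.13, limma adjusted p = 0.0337), though Decr1 no longer passed after median centring (-0.50, limma adjusted p = 0.0598) or with its probe sets averaged (-0.40, limma adjusted p = 0.0725). Eci2, an isomerase also found in peroxisomes, measured 11.89, 11.98 and 12.10, and 11.62, 11.72 and 12. Its proximal 1 value lay with the other proximal libraries, and its difference of -0.37 (SE 0.11) did not pass (limma adjusted p = 0.0783).

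In the main fit of the 4 libraries, the electron transfer flavoprotein and its partner were the only class in which each member passed. That depended on the setting. With dim genes filtered out or the trended prior, Eci1, Decr1 and Eci2 all passed too (for Eci2, limma adjusted p = 0.0353 and 0.0316). Each peroxisomal member below also passed with that prior (for Acaa1a, limma adjusted p = 0.0446). Etfa, the alpha subunit, measured 13.04, 13.46 and 13.47 in proximal 1, 2 and 3 and 12.91, 12.98 and 13.50 in distal 1, 2 and 3. Etfb, the beta subunit, measured 13.53, 13.95 and 13.94, and 13.45, 13.39 and 13.95. Etfdh, which passes the electrons on to ubiquinone, measured 11.91, 12.46 and 12.49, and 12.01, 12 and 12.44. In all 3 genes proximal 1, distal 1 and distal 2 were the lowest libraries. The differences in the 4 libraries were -0.52, -0.53 and -0.47 (SE 0.10 each, limma adjusted p = 0.0277, 0.0266 and 0.0339), and Etfdh no longer passed after median centring (-0.38, limma adjusted p = 0.0636).

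The widest range of any member was in peroxisomes. Acaa1b, a peroxisomal thiolase, measured 7.41, 12.21 and 12.42 in proximal 1, 2 and 3 and 6.96, 7.31 and 12.23 in distal 1, 2 and 3. Its values fell into a high set, with proximal 2, proximal 3 and distal 3, and a low set with the rest. The means were 10.68 ± 2.83 (SD, n = 3) in proximal and 8.83 ± 2.95 (SD, n = 3) in distal libraries, and the difference as labelled was -1.85 (SE 1.88, limma adjusted p = 0.831). In the 4 libraries it was -5.18 (SE 0.16, 36.3-fold, limma adjusted p = 0.000195), and Acaa1b was the member that passed with any 1 of those 4 libraries left out, between -5.00 and -5.36. Acaa1a, its near copy, measured 10.73, 11.22 and 11.49, and 11.00, 10.54 and 11.09. Its difference in the 4 libraries was -0.58 (SE 0.19) and did not pass (limma adjusted p = 0.0938). The Acaa1a probe set is of a design that can match several transcripts, so its level may include the other thiolase.

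The 250 bases before the starts of these thiolase genes are shown for the unlike sizes of their differences. Both lie on chromosome 9, with starts 184201 bases apart (RefSeq, GRCm38.p6). Acaa1a occupies the plus strand, chr9:119341044-119341293, and Acaa1b the minus strand, chr9:119157094-119157343. Capitals mark the same boxes as above.
Acaa1a: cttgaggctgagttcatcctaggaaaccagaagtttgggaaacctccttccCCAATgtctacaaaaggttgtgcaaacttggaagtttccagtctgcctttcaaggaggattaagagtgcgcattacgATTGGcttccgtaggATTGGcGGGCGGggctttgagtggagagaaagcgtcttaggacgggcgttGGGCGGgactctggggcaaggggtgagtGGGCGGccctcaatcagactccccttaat
Acaa1b: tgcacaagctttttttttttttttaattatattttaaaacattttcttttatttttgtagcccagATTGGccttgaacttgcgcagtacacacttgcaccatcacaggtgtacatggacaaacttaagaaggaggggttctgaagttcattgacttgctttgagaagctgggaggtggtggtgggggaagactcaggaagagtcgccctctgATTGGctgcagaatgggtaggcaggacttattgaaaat

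The stretch of Acaa1a holds 3 GC boxes and 3 CCAAT boxes, with a GC content of 53.6%. That of Acaa1b holds 0 GC boxes and 2 CCAAT boxes, with a GC content of 41.6%, against a median of 52.4% over all 32851 promoters in the table. These are descriptions of the letters only.

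The bifunctional enzymes of peroxisomes had smaller ranges than Acaa1b. Ehhadh, which works on dicarboxylic and straight chains, measured 10.14, 11.17 and 11.55 in proximal 1, 2 and 3 and 10.41, 10.14 and 11.05 in distal 1, 2 and 3. Hsd17b4, which also handles branched chains and bile acid precursors, measured 11.28, 12.14 and 12.27, and 11.16, 11.20 and 12.07. Both were lower in distal in the 4 libraries, with differences of -1.08 (SE 0.18, 2.12-fold, limma adjusted p = 0.0154) and -1.02 (SE 0.11, 2.03-fold, limma adjusted p = 0.0049).

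**Figure D2:**
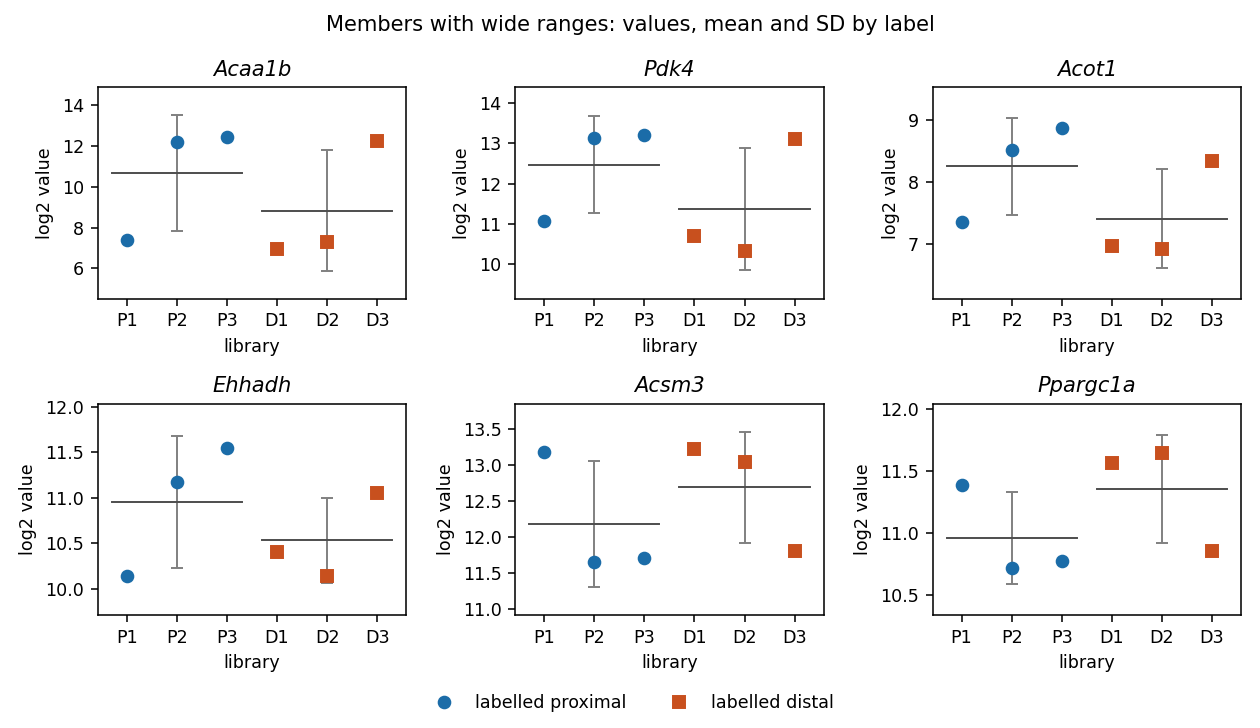
Points are log2 values of 6 members in the libraries labelled proximal (P1 to P3, circles) and distal (D1 to D3, squares), and lines and bars give the mean and SD of each label. Acaa1b, Pdk4, Acot1 and Ehhadh are low in P1, D1 and D2, and Acsm3 and Ppargc1a are high there, so each label's SD spans most of the range.

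The ketone enzymes did not run together. Bdh1, which interconverts acetoacetate and beta-hydroxybutyrate, measured 12.07, 12.68 and 12.68 in proximal 1, 2 and 3 and 12.04, 11.84 and 12.64 in distal 1, 2 and 3, and was lower in distal in the 4 libraries, with a difference of -0.74 (SE 0.12, limma adjusted p = 0.0152). Oxct1, which activates acetoacetate so that ketone bodies can be used as fuel, had its lowest values in proximal 2 and 3, with 13.14, 12.77 and 12.85, and 13.21, 13.20 and 13.10. Its difference was 0.40 (SE 0.11) and did not pass (limma adjusted p = 0.056), but it passed under all 5 other settings of the calculation on these libraries, among them quantile normalization (0.43, limma adjusted p = 0.0425) and median centring (0.48, limma adjusted p = 0.0338). All 4 Oxct1 probe sets were higher in distal 1 and 2, by 0.40 to 0.69. Acat1, a mitochondrial thiolase that joins or splits acetoacetyl-CoA, measured 12.77, 12.70 and 12.79, and 12.81, 12.48 and 12.79, with a difference of -0.10 (SE 0.15, limma adjusted p = 0.682).

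Enzymes that make or split acyl-CoA outside the spiral ran in opposite directions. Acsm3, a mitochondrial synthetase for medium chains, measured 13.19, 11.65 and 11.71 in proximal 1, 2 and 3 and 13.22, 13.05 and 11.81 in distal 1, 2 and 3. Its mean was 12.18 ± 0.87 (SD, n = 3) in proximal and 12.69 ± 0.77 (SD, n = 3) in distal libraries, and it was higher in distal by 1.46 in the 4 libraries (SE 0.12, 2.74-fold, limma adjusted p = 0.00226). Acot1, a cytosolic thioesterase, measured 7.37, 8.52 and 8.88, and 6.98, 6.93 and 8.34. It was lower, with a difference of -1.75 (SE 0.15, 3.35-fold, limma adjusted p = 0.00278). Acot2, its mitochondrial relative of similar sequence, measured 10.94, 11.22 and 11.15, and 10.94, 10.83 and 11.51, and differed by -0.30 (SE 0.11, limma adjusted p = 0.12). Probe sets of such relatives can share signal. Acsl5, a synthetase for long chains, stayed within 12.54 and 12.72 in all libraries, with a difference of -0.12 (SE 0.11, limma adjusted p = 0.48).

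The fuel switch Pdk4 had the second widest range among the 31 members. Pdk4, a kinase that shuts off pyruvate dehydrogenase when fat is burned, measured 11.07, 13.13 and 13.20 in proximal 1, 2 and 3 and 10.69, 10.32 and 13.10 in distal 1, 2 and 3. The means were 12.47 ± 1.21 (SD, n = 3) and 11.37 ± 1.51 (SD, n = 3), a difference of -1.10 as labelled (SE 0.89, limma adjusted p = 0.824). In the 4 libraries it was lower in distal, with a difference of -2.66 (SE 0.15, 6.32-fold, limma adjusted p = 0.000908). Ppargc1a, a coactivator of mitochondrial gene expression, ran the other way, with 11.39, 10.72 and 10.78, and 11.57, 11.65 and 10.86. It was higher in distal by 0.86 (SE 0.11, 1.82-fold, limma adjusted p = 0.00734), and all 5 of its probe sets had that sign.

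The upstream bases of Pdk4, Acsm3 and Ppargc1a are shown because Pdk4 ran opposite to the others, with boxes in capitals as before. The ranges of these genes over the 6 libraries were 2.88, 1.57 and 0.93. The RefSeq positions in GRCm38.p6 are chr6:5496279-5496528 on the minus strand, chr7:119760673-119760922 on the plus strand and chr5:51567726-51567975 on the minus strand.
Pdk4: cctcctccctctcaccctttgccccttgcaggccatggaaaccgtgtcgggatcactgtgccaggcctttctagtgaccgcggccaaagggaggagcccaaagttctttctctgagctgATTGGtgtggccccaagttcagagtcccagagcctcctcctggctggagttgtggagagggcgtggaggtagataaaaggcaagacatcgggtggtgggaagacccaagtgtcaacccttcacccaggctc
Acsm3: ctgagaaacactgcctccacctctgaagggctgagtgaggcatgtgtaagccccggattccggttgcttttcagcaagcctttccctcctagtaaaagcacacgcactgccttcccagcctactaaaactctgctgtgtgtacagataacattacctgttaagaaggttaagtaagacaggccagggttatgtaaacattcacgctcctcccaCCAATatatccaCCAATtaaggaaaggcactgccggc
Ppargc1a: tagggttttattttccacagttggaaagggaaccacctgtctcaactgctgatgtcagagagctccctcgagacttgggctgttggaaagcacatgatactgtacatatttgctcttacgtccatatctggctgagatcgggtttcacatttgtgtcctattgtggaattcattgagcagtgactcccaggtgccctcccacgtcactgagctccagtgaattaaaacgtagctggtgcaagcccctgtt

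None of these 3 stretches holds a GC box, and Pdk4 has 1 CCAAT box, Acsm3 has 2 and Ppargc1a has 0. RefSeq promoters were at hand for 27 of the 31 members. A GC box stood in the 250 bases before the start for 14 of these 27 members (51.9%) and 35.4% of all 27025 genes, and a CCAAT box for 15 (55.6%) and 37.5%.

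The textbook element bound by PPAR and RXR is called DR1, a direct repeat of AGGTCA with 1 spacer base. It was searched on both strands in 300 bases, from 250 before to 50 after the start, allowing at most 2 mismatches at its 12 fixed letters. Such a match was found for 3 of 27 members (11.1%) and 4.4% of all genes, and the count was 0 with at most 1 mismatch and 9 (33.3%, against 27.3% of all genes) with at most 3. The 3 matches are shown in the direction of the repeat, with letters equal to it in capitals. Counted from the start site in the direction of the gene, they begin at -63 in Cd36, -77 in Etfa and 7 in Slc25a20. Those of Cd36 and Etfa lie on the strand opposite to the gene, so that position is the last base shown.
Cd36: AaGTCAgAGGcCA
Etfa: AGGgCAaAGGTaA
Slc25a20: AGGTgAaAGGTCg

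Of these genes Etfa passed in the 4 libraries, and Slc25a20 and Cd36 did not. Pdk4, Acaa1b, Ehhadh and Acot1 had no match with at most 3 mismatches in this window.

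**Figure D3:**
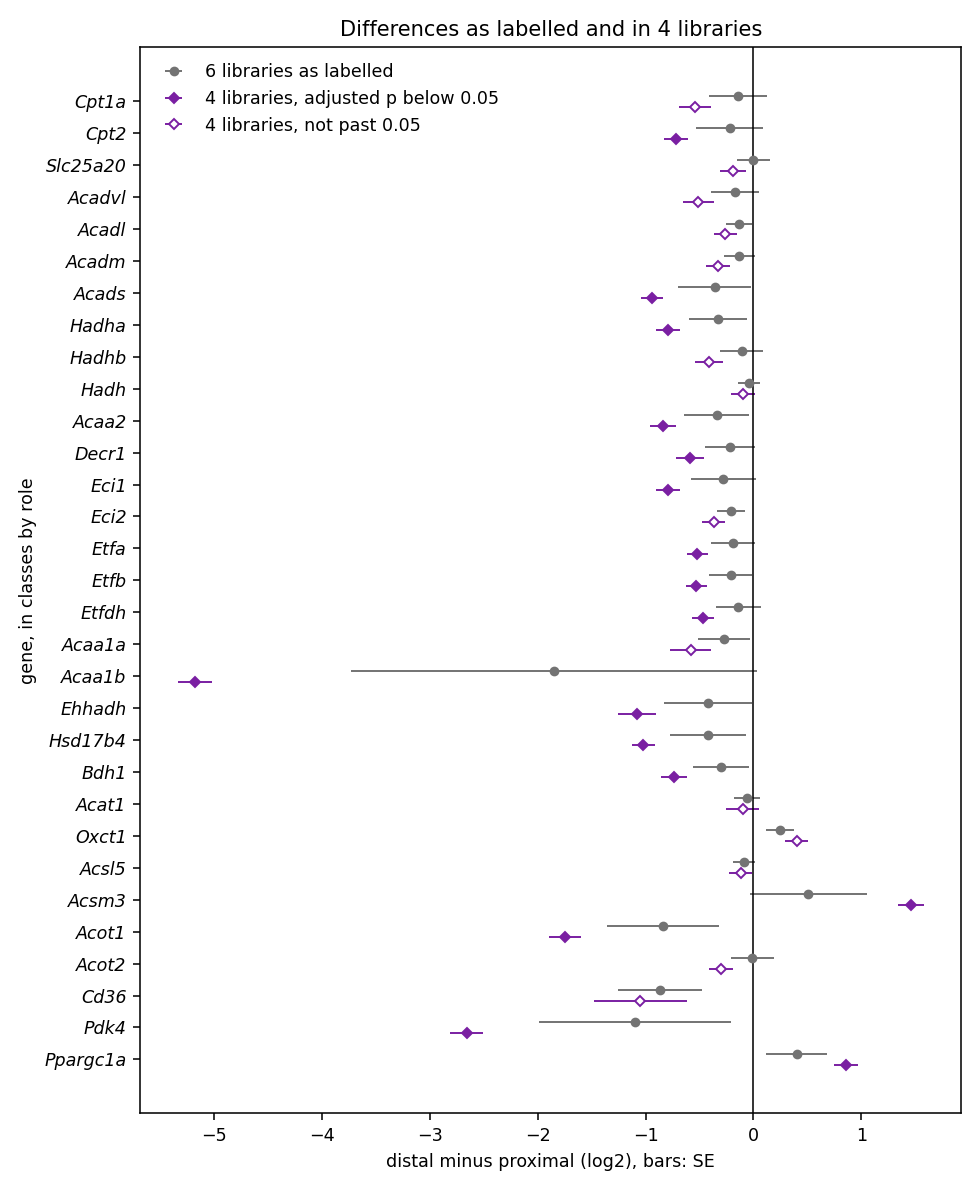
For each of the 31 genes, circles give the log2 difference distal minus proximal over the 6 libraries as labelled and diamonds that over distal 1 and 2 and proximal 2 and 3, with SE bars. Diamonds are filled for the 17 genes with a limma adjusted p below 0.05, of which 15 lie left of 0 and Acsm3 and Ppargc1a lie right of it.

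Cd36, a membrane protein for fatty acid uptake in fat cells, endothelium and some enterocytes, did not share the common pattern. It measured 9.55, 9.68 and 9.01 in proximal 1, 2 and 3 and 8.89, 7.69 and 9.05 in distal 1, 2 and 3. Proximal 1 was among the highest libraries and distal 2 the lowest. The difference was -0.87 as labelled (SE 0.39, limma adjusted p = 0.824) and -1.05 in the 4 libraries (SE 0.43, limma adjusted p = 0.154). Of the 12 fat cell markers 9 were measured, led by Lpl and Pck1, with mean levels of 9.40 to 10.17 in proximal and 8.81 to 9.77 in distal libraries, and 3 of the 9 were called lower in the 4 libraries. Like Cd36, 5 of the 9 were lowest in distal 2 (Adipoq, Cidec, Lep, Lpl and Gpd1). The other 4 were not: Retn was lowest in proximal 3, Cidea and Aqp7 in proximal 1, and Pck1 ran the opposite way, with its lowest value, 11.88, in proximal 2 and its highest, 12.26, in distal 2. Of the 10 endothelial markers, 7 were also lowest in distal 2, while Ptprb had its highest value, 11.47, there. Distal 2 was lowest as well for 5 of 10 acinar, 4 of 10 skeletal muscle, 4 of 9 leukocyte and 4 of 9 liver markers. The count was 3 of 12 for epithelium, 2 of 9 for enteric neurons, 2 of 7 for regional genes and 0 of 10 for smooth muscle. It was not made over all genes, so being lowest in distal 2 does not set fat cells or endothelium apart. The part of fat cells and endothelium in the values of Cd36 was not tested.

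**Figure D4:**
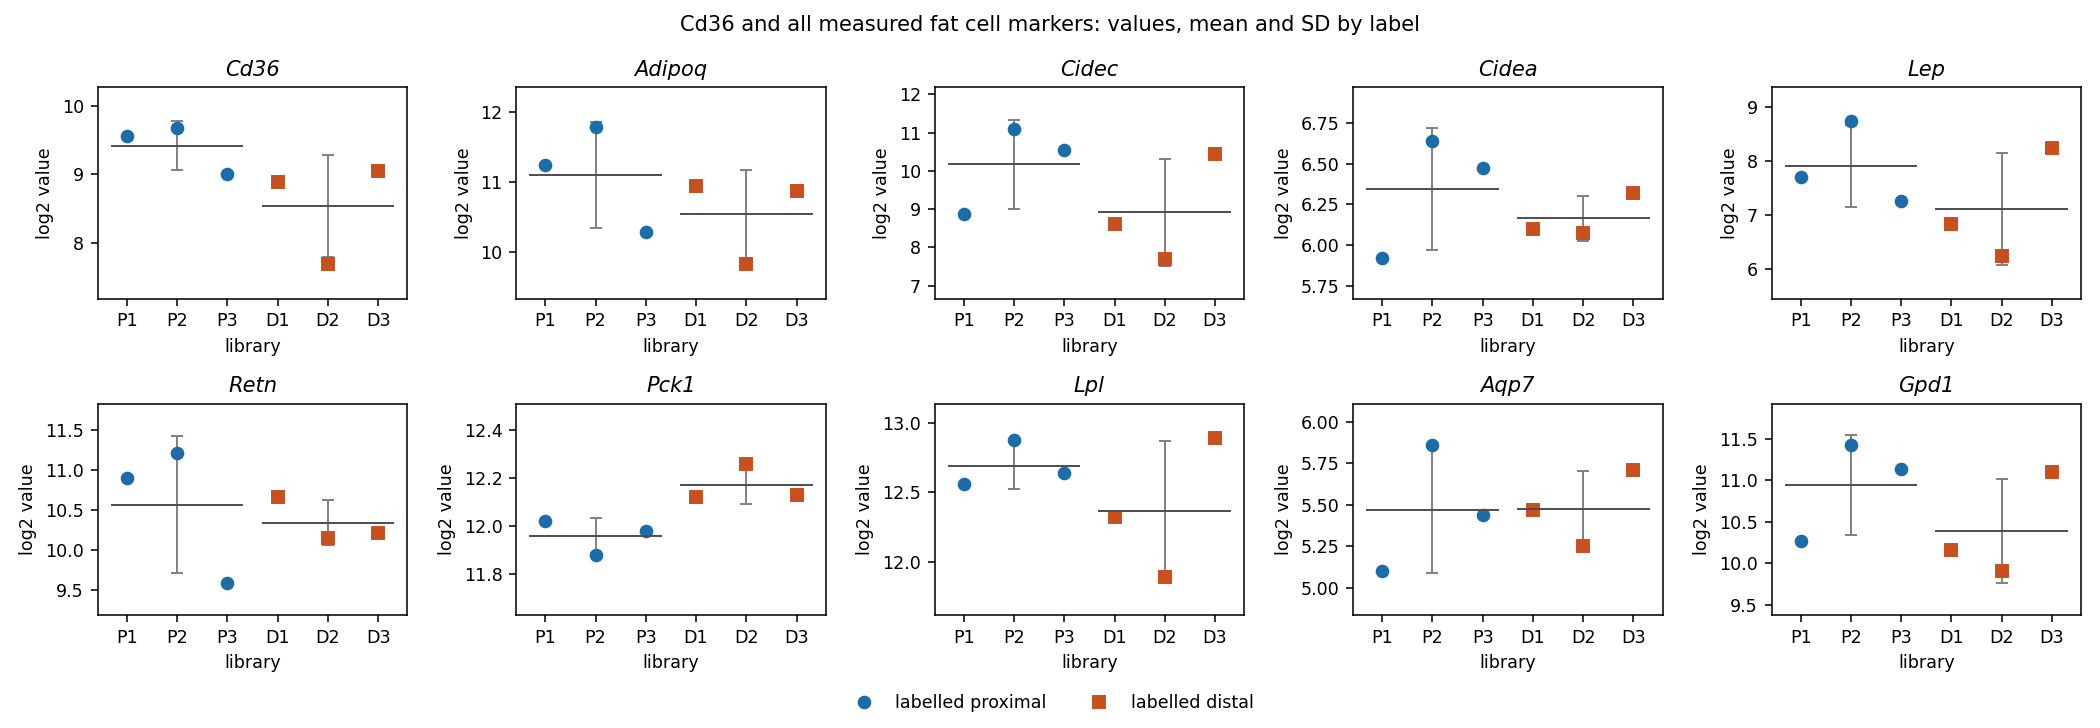
Points are log2 values of Cd36 and of all 9 measured fat cell markers in the libraries labelled proximal (P1 to P3, circles) and distal (D1 to D3, squares), with the mean and SD of each label. Cd36 and 5 of the markers are lowest in D2, while Retn, Cidea and Aqp7 are lowest elsewhere and Pck1 is highest in D2.

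Other genes of the pathway were taken from 5 further lists, 105 of 115 genes measured. As labelled 0 passed by limma and 2 had an unadjusted p below 0.05, Slc16a7, a carrier of monocarboxylates, and Ppargc1b. In the 4 libraries 38 were lower in distal and 5 higher, and 62 did not pass, against 11.5% of all genes lower and 7.71% higher. The median difference was -0.35, and -0.045 over all genes. As labelled, 2 of the 105 did not overlap and were lower in distal (Slc16a7 and Aacs) and 2 did not overlap and were higher (Ppard and Esrra), where 4.61% and 2.73% of all genes did so. For both Ppard and Esrra a further probe set ran the other way in the 4 libraries (-0.28 and -0.31, against 0.24 and 0.56). The lists were drawn up with results of these data known, so the counts are descriptions.

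Among other mitochondrial genes, 7 of 24 were lower in distal in the 4 libraries and 0 higher. Acsf2, an acyl-CoA synthetase, measured 11.80, 13.03 and 13.09 in proximal 1, 2 and 3 and 11.62, 11.74 and 13.05 in distal 1, 2 and 3, a difference of -1.38 (SE 0.11, limma adjusted p = 0.00226). Nudt7 (-1.05), a hydrolase of coenzyme A, Acad12 (-0.80), Acot9 (-0.68) and Slc22a5 (-0.57), the carnitine importer, were also lower, and Acad11 differed by -0.35 without passing (limma adjusted p = 0.133).

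Among other peroxisomal genes, 12 of 24 were lower and 1, Acot6, was higher. Slc27a2, which brings in and activates very long chains, measured 9.08, 11.04 and 11.36, and 8.39, 8.59 and 10.94, a difference of -2.71 (SE 0.15, limma adjusted p = 0.000855). Acox2, the oxidase of branched chains and bile acid precursors, measured 5.85, 8.69 and 8.92, and 6.28, 6.14 and 8.19, a difference of -2.60 (SE 0.13, limma adjusted p = 0.000584). Its low values lie under 6.54, the lower quartile of gene values, and near that level the array's background may mask further differences. Acot4 was lower, with a difference of -1.28, while Decr2 (-0.99), Acot12 (-0.76) and Abcd2 (-0.51) did not pass (limma adjusted p = 0.159, 0.0775 and 0.357).

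Among 6 further ketone genes, 3 were lower in distal in the 4 libraries and 0 higher. Slc16a7 measured 9.20, 9.05 and 9.08, and 8.10, 8.51 and 9.0, and in the 4 libraries it was lower, with a difference of -0.76 (SE 0.16, limma adjusted p = 0.0319). Hcar2 (-0.64), a receptor for beta-hydroxybutyrate with all values between 5.59 and 6.56, near background, and Bdh2 (-0.51) were also lower. Slc16a1 (-0.53), a carrier of butyrate and ketone bodies, Oxct2a (-0.35) and Aacs (-0.07) did not pass (limma adjusted p = 0.0897, 0.185 and 0.661). A further, dimmer probe set of Slc16a1 differed by -1.59 in the 4 libraries.

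Of 37 regulators and PPAR targets, 13 were lower in distal in the 4 libraries and 2, Ppargc1b and Esrrg, were higher. Ppara, the fasting receptor of this pathway, measured 8.49, 10.16 and 10.37 in proximal 1, 2 and 3 and 8.56, 9.03 and 10.18 in distal 1, 2 and 3, a difference of -1.47 (SE 0.19, limma adjusted p = 0.00795). Pparg, known from fat cells and colonocytes, measured 10.67, 12.37 and 12.49, and 10.58, 10.45 and 12.22, a difference of -1.92 (SE 0.12, limma adjusted p = 0.00104). Both were lowest in proximal 1, distal 1 and distal 2. Vnn1, a PPAR target that splits pantetheine, was lower, with a difference of -4.07 (SE 0.14, limma adjusted p = 0.000238), and Creb3l3, a membrane-bound transcription factor of liver and gut, was lower as well, at -2.55 (SE 0.11, limma adjusted p = 0.000389). The fatty acid binding proteins Fabp2 (-1.41) and Fabp1 (-1.35) were lower as well, Fabp1 with 8.73 in distal 3 and 5.48 to 7.23 in the others.

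The coactivator Ppargc1b, a relative of Ppargc1a, measured 10.78, 10.92 and 11.02, and 11.54, 11.60 and 11.01. Esrrg, an orphan receptor that works with both coactivators, measured 10.72, 10.25 and 10.24, and 10.90, 10.79 and 10.49. Each was 1.52-fold higher in distal 1 and 2 than in proximal 2 and 3 (limma adjusted p = 0.0206 and 0.0203), the same side as Ppargc1a, though the size for Esrrg depends on the probe set: the 3 differed by -0.10 to 2.83, against 0.60 for the one used. Proximal 1 had the lowest Ppargc1b value of all libraries.

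**Figure D5:**
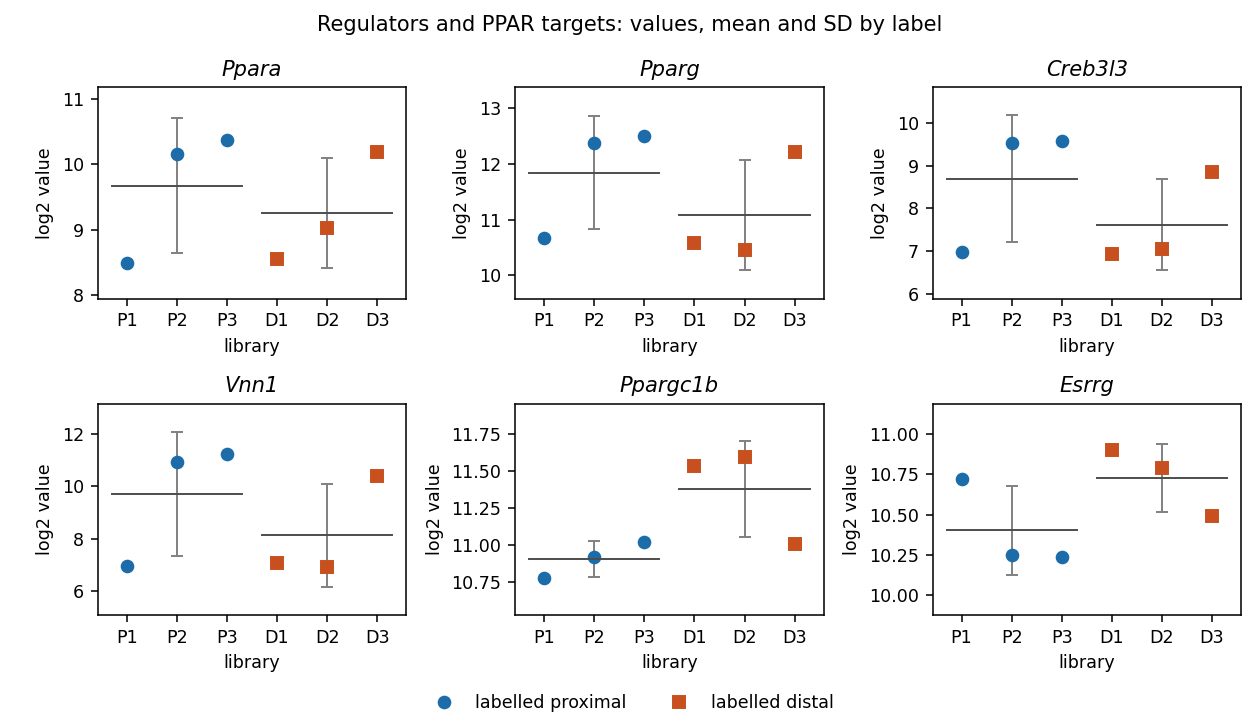
Points are log2 values of 6 regulators and targets in the libraries labelled proximal (P1 to P3, circles) and distal (D1 to D3, squares), with the mean and SD of each label. Ppara, Pparg, Creb3l3 and Vnn1 are low in P1, D1 and D2, while Ppargc1b and Esrrg are highest in D1 and D2.

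Of 14 further synthetases and thioesterases, 3 were lower and 2, Acss2 and Acot11, were higher in distal in the 4 libraries, against 11.5% and 7.71% of all genes, and the list's median difference was -0.05. Slc27a4, the main fatty acid transport protein of enterocytes, measured 9.73, 11.72 and 11.72, and 9.72, 9.85 and 11.40, a difference of -1.94 (SE 0.11, limma adjusted p = 0.000852). Acot7 (-0.80) and Acsl3 (-0.47) were lower and Acss2 (0.56), which activates acetate, was higher. For both Acss2 and Acot11 a further probe set ran the other way (-0.56 and -0.41). Slc27a1 (0.36) and Acsl6 (0.33) did not pass (limma adjusted p = 0.214 and 0.296).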

How the data were processed

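Gene expression was measured on 1 single-colour array for each of 6 libraries. The authors deposited log2 values per probe set, made with RMA in Partek 6.5 per the submitters' processing notes. The log2 scale follows from that method and fits their span, 2.91 to 15.16; further settings were not given. RMA equalises arrays, which removes any change common to most genes. Of 45101 probe sets, 64 controls were left out, 34945 have 1 gene symbol, 932 several and 9160 none listed. Symbols were updated through gene identifiers for 34741 probe sets with a RefSeq table of GRCm38.p6. Array medians ran from 7.90 to 8.02, and precision is limited by having 6 arrays.

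Differences, always distal minus proximal, were tested in R 4.3.3 by limma 3.58.1 (lmFit, eBayes, two-sided, Benjamini-Hochberg over 18193 genes), without a block. The labels do not say which libraries share an animal, so p-values measure only the spread between these libraries. The calculation was tested on simulated data. Members and lists were chosen with earlier results of these data known. All members were named with their values, of each other list up to 6 genes with the widest range over the 6 libraries, and of marker lists the 2 brightest genes. Genes called higher where a list had at most 2, the genes with an unadjusted p below 0.05, genes without overlap, the fat cell markers beyond the 2 brightest and the regulators plotted were named after their values were seen. The fit of 4 libraries was chosen for their profiles. A planned comparison of protein sequences was not made here. GC and CCAAT boxes were added after seeing the data.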

Additional observations from a re-analysis of the deposited data

How the results depend on the processing

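Leaving out proximal 1 and distal 3, chosen after results were known, raised the calls from 0 to 3495 genes, 17 members and 43 other pathway genes. On all 6 libraries, every other alternative run gave 0 calls by limma, including the replicate block, where 1065 genes, 1 member and 8 pathway genes had an unadjusted p below 0.05. The labels do not say that a number marks an animal, so the numbers were not taken as pairs. Deviations from the labelled group means correlated at 0.677, -0.448 and 0.678 for libraries with the same number. For proximal 2 with distal 3 the value was 0.728. Proximal 1 and distal 3 went against their labels and enter these means, so the correlations cannot show which libraries share an animal. Some small, uncalled differences changed sign: Slc25a20 (0.00) and Acot2 (0.03) after quantile normalization, Slc25a20 (0.06), Hadh (0.03), Acat1 (0.00) and Acot2 (0.05) after median centring, and Hadhb (0.00) with probe sets averaged; the cause was not tested. Leaving out 1 of the 6 libraries gave -0.41 to 0.09 for Cpt1a, -0.10 to 0.10 for Slc25a20, -0.27 to 0.01 for Hadhb, -0.07 to 0.00 for Hadh, -0.12 to 0.05 for Acat1 and -0.22 to 0.12 for Acot2.

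In the 4 libraries, the filter on dim genes, quantile normalization, median centring, averaged probe sets and a trended robust prior gave 3241 to 4577 genes, 16 to 24 members and 34 to 48 pathway genes. Acadm, Hadhb and Eci2, like Cpt1a, passed with the filter and with that prior but not in the main fit. Leaving out 1 of the 4 gave 146 to 1634 genes, 1 to 9 members and 4 to 23 pathway genes, with the lone library assumed to vary like the other group, and -0.27 to 0.07 for Acat1. Promoter matches numbered 0 with at most 1 mismatch and 9 with at most 3, against 3. Signal near background limits dim genes such as Acox2.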
